A study of Saccharomyces cerevisiae BY4741 with 16 samples.

Results

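Ubiquitin is attached to histone H2B in budding yeast by the conjugating enzyme Rad6 and the RING-type ligase Bre1, which works together with Lge1, and it is removed by the proteases Ubp10 and Ubp8. The 4 genes described here are *BRE1*, *RAD6*, *LGE1* and *UBP10*, chosen by systematic name out of the 5218 genes with values in a table of chromatin marks. H2B ubiquitination follows RNA polymerase II (RNAPII) along transcribed genes and is needed for trimethylation of histone H3 at lysine 4 (H3K4me3) by Set1, and for methylation of another H3 residue by Dot1. H3K4me3 marks the start of transcribed genes, and trimethylation of H3 at lysine 36 (H3K36me3) is laid down along gene bodies by Set2, which travels with elongating RNAPII. What follows concerns the marks on the chromatin of these 4 genes, and says nothing of their RNA, their proteins or H2B ubiquitination itself.

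Both marks were measured by chromatin immunoprecipitation and sequencing in log-phase *Saccharomyces cerevisiae* before (0 min) and 20, 40 and 60 min after addition of 1 ug/mL rapamycin. The drug serves here to export RNAPII: in an anchor-away strain it links a tagged nuclear protein to FKBP12 on a ribosomal protein, which carries it to the cytoplasm. All libraries came from a BY4741 anchor-away strain of mating type MATa with the anchor RPL13-2xFKBP12-NATMX6, the alleles tor1D1 and fpr1D, and the marker alleles his3D1, leu2D0 and ura3D0, so the 0 min cells carried them too. No tagged RNAPII subunit is named in the genotype, and the depletion is taken from the design of the series. The labels list 8 immunoprecipitated and 8 input libraries, 1 of each per mark and time, and all comparisons are with the single 0 min library of the mark. With no replicates, no test was run: changes are descriptions of these libraries, set against the spread over all genes. A time course without rapamycin was not analysed here.

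The deposited signal is linear and above 0 at every gene, with a depth that is unknown. It summed over all genes to between 21240 and 24034 for H3K4me3 and between 4172 and 6655 for H3K36me3, with the 60 min library lowest in each. Whether the signal was divided by input, gene length or the spike-in is not given in the sources used here, so levels of genes of unequal length are set side by side only as deposited. The locus of *FPR1*, the gene deleted according to the genotype, was not at 0: its H3K4me3 values in time order were 2.26, 1.34, 3.86 and 1.04.

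The members lie on 4 chromosomes, and none overlaps another gene annotated in the R64 assembly, which sacCer3, the build in the submitters' processing notes, also names. *BRE1* (YDL074C) is at chromosome IV, 324047 to 326149, and is 2103 bp long. *RAD6* (YGL058W) is at chromosome VII, 393986 to 394504, and is the shortest at 519 bp. *LGE1* (YPL055C) is at chromosome XVI, 453992 to 454990, with 999 bp. *UBP10* (YNL186W) is at chromosome XIV, 289498 to 291876, and is the longest at 2379 bp. All are protein-coding genes, and lengths here are those of the annotated gene.

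Before depletion, all 4 genes were strongly marked. Their 0 min H3K4me3 signal lay between 6.22 and 7.32, against a median of 4.91 over all genes, and between percentiles 84.1 and 97.0, where a percentile is the share of genes with a lower value. H3K36me3 lay between 1.87 and 3.93, against a median of 1.08, and between percentiles 79.9 and 98.6. The order differed between the marks. For H3K4me3 it was *BRE1*, *RAD6*, *LGE1* and *UBP10* from high to low, with the highest only 1.18 times the lowest. For H3K36me3 it was *LGE1*, *UBP10*, *RAD6* and *BRE1*, with the highest 2.10 times the lowest. With 1 library per time, no neighbours in these orders can be told apart by replicate spread. The order of the H3K36me3 levels did not follow length, since the longest genes, *UBP10* and *BRE1*, stood second and last.

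**Figure D1:**
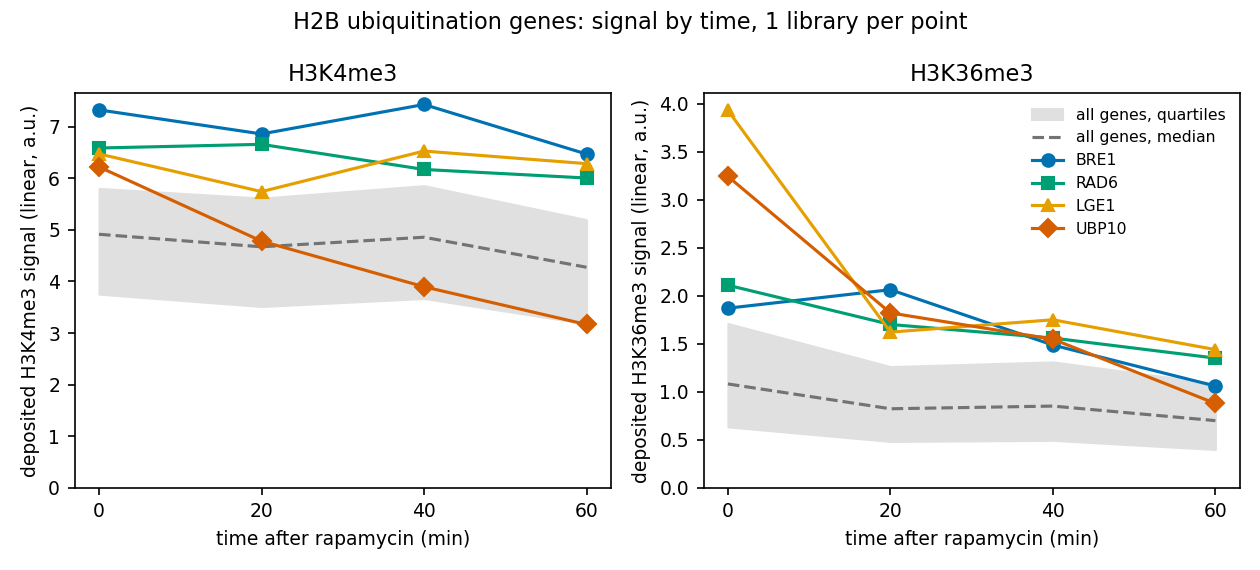
Deposited signal of H3K4me3 (left) and H3K36me3 (right), in arbitrary linear units, against time after rapamycin in min, for the 4 genes (coloured lines, 1 library per point) with the median (dashed) and quartiles (grey) of all 5218 genes. *UBP10* leaves the other 3 genes in H3K4me3 and ends at 3.16, while in H3K36me3 the 4 genes start apart, from 1.87 to 3.93, and lie within 1.49 to 1.75 at 40 min.

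After depletion the 4 genes separated in H3K4me3. *BRE1*, *RAD6* and *LGE1* stayed at 5.74 or above in all 4 libraries, while *UBP10* had a lower value in each successive library. At 60 min the highest member was 2.04 times the lowest. H3K36me3 did the reverse at first: the members' range narrowed from 2.10-fold at 0 min to 1.27-fold at 20 min and 1.18-fold at 40 min, and was 1.64-fold at 60 min. Log2 changes below are of the signal plus a pseudocount of 1% of the mark's 0 min median, 0.0491 for H3K4me3 and 0.0108 for H3K36me3, and all 4 genes passed the filter on low levels in both marks.

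*UBP10*, the gene of the H2B deubiquitinase, had the lowest signal of the 4 genes in both marks at 60 min. Its H3K4me3 signal was 6.22, 4.78, 3.90 and 3.16 at 0, 20, 40 and 60 min. Each library was lower than the one before, which held for 1 of the 4 members and for 13.5% of the 4826 genes tested for this mark. The log2 change was -0.38 at 20 min, -0.67 at 40 min and -0.96 at 60 min, against -0.06, -0.0024 and -0.18 for the median gene. At 60 min it retained 50.9% of its 0 min signal.

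That H3K4me3 change was the seventh lowest of all genes tested, and its rank at 40 min was 3. Among the 829 genes that started at or above the *UBP10* level, none had a lower change at 60 min. Among 2463 genes of similar start (from 0.8 times its 0 min level to that level divided by 0.8), none had a lower change either, and their median was -0.17. In level, *UBP10* went from percentile 84.1 at 0 min to 53.2, 28.5 and 24.8. Both the change and the starting level rest on the same 0 min library. Without that library, the change from 20 to 60 min was -0.59, at percentile 0.818, so the change after 20 min also placed it low. Between 20 and 40 min, when the signal of the median gene was 0.06 higher, *UBP10* was 0.29 lower on the log2 scale, at percentile 0.839. The step from 40 to 60 min was less extreme, at -0.30 and percentile 12.1, against -0.18 for the median gene.

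H3K36me3 of *UBP10* was 3.24, 1.82, 1.55 and 0.879 at the 4 times. It too was lower in each successive library, as was *RAD6*, and as were 28.3% of the 4861 genes tested for H3K36me3. The change was -0.83 at 20 min and -1.87 at 60 min, or 27.1% of the 0 min level, and the median gene stood at -0.41 and -0.65. Genes that started as high were also lower: among 354 genes of similar start, the median change was -0.68 at 20 min and -0.83 at 60 min. Within that group *UBP10* was at percentile 31.2 at 20 min and 0.424 at 60 min, so only its later change stood out. From 20 to 40 min *UBP10* differed by -0.23 and from 40 to 60 min by -0.81, the latter at percentile 1.61. Of the 60 min change of *UBP10* 44.3% was there at 20 min. Over all genes tested, the median change at 20 min was 64.0% of the median change at 60 min, a ratio of medians and not a share per gene. Among 171 genes with a 0 min H3K36me3 level at or above that of *UBP10*, 2 had a lower change.

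The joint position of *UBP10* was shared by few genes. Of 4657 genes past both filters, 2 were as low or lower in both marks at 60 min. They were the *FPR1* locus and *SWM1*, named here after their values were seen. With 6 genes lower than *UBP10* in H3K4me3, this count could not exceed 6, so it adds little to that rank. *SWM1*, which encodes a subunit of the anaphase-promoting complex, went from 4.65 to 2.04 in H3K4me3 and from 0.895 to 0.223 in H3K36me3. Across genes the 60 min changes of the marks had a Spearman rho of 0.18 over these 4657 genes. That is a description across genes, which are not independent replicates and share the scale of each library. Among the 822 genes at least 2-fold lower in H3K36me3, the median H3K4me3 change was -0.21, with quartiles of -0.34 and -0.11, and *UBP10* was at percentile 0.669 of them.

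**Figure D2:**
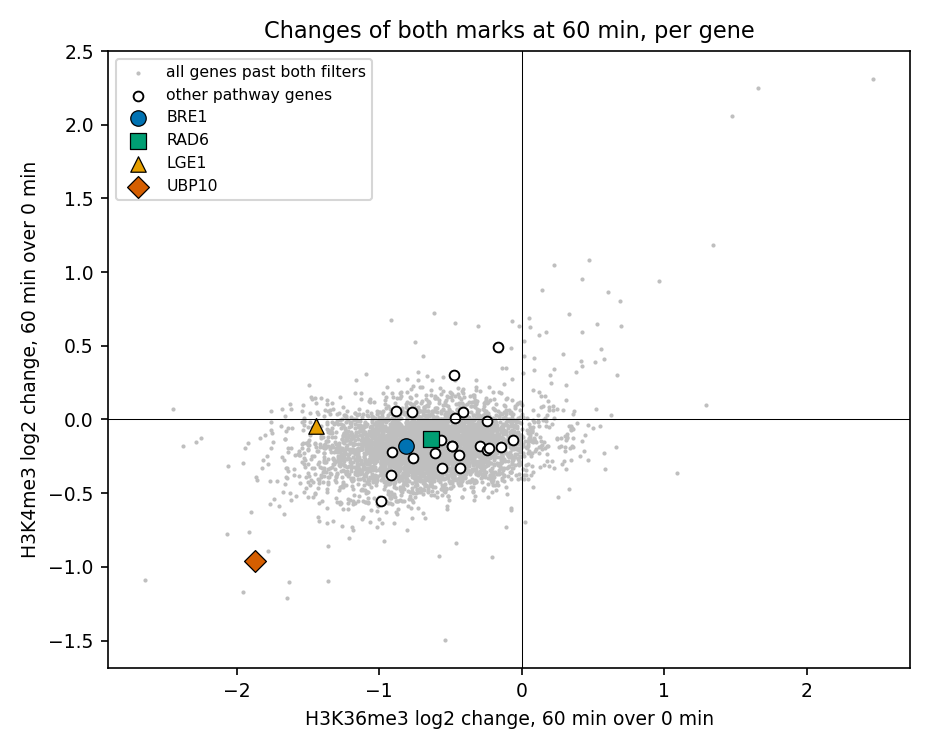
Log2 change at 60 min over 0 min of H3K36me3 (horizontal) and H3K4me3 (vertical), 1 point per gene, for the genes past both filters (grey), other genes of the H2B ubiquitination pathway (open circles) and the 4 members. *UBP10* lies at -1.87 and -0.96, away from the main cloud, and *LGE1* at -1.44 and -0.04, low in H3K36me3 only.

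*LGE1*, whose product is the partner of Bre1, had the highest H3K36me3 of the members at 0 min and the largest H3K36me3 change at 20 min. Its H3K36me3 signal was 3.93, 1.62, 1.75 and 1.44 at the 4 times. The 3 later libraries were close to one another and all far below 0 min. The log2 change was -1.27 at 20 min, at percentile 1.06, and -1.44 at 60 min, at percentile 2.83. Of the 60 min change 88.2% was there at 20 min, and from 20 to 60 min *LGE1* differed by -0.17, less than the -0.23 of the median gene. Its position therefore rests on the 0 min library. Genes that started as high were also lower than most. Among 177 genes of similar start, by the same limits, the median change was -0.78 at 20 min and -0.91 at 60 min. *LGE1* was at percentile 4.24 of them at 20 min and 11.02 at 60 min.

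H3K4me3 of *LGE1* was 6.47, 5.74, 6.53 and 6.28. The 20 min library was the lowest, and the 60 min signal was 97.1% of that at 0 min, a log2 change of -0.04 at percentile 83.0. From 20 to 60 min the signal was 0.13 higher, at percentile 94.1. The H3K4me3 change minus the H3K36me3 change was 1.40 for *LGE1*, at percentile 98.6 of 4657 genes, against a median of 0.47. For *UBP10* this difference was 0.91. Of the members, then, *UBP10* was low in both marks and *LGE1* in H3K36me3 alone.

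*BRE1*, the ligase gene, had the highest H3K4me3 of the members at all 4 times, with 7.32, 6.86, 7.43 and 6.47. The 60 min change of -0.18 was that of the median gene, at percentile 51.5. The H3K36me3 signal of *BRE1* was 1.87, 2.06, 1.49 and 1.06, and so was higher at 20 min than at 0 min. Its 20 min change of 0.14 was at percentile 93.7, where 88.4% of genes were below their 0 min level and 3 of the 4 members were. The lower values came later: the step from 20 to 40 min was -0.47, at percentile 2.29, while the median gene differed by 0.05. At 60 min *BRE1* was at -0.81, percentile 32.4. From 20 to 60 min it was at -0.95, at percentile 1.27, next to *UBP10* at -1.04, whereas *LGE1* was at -0.17 and *RAD6* at -0.33. The *BRE1* change was thus of similar size from either start, but its percentile was not. Relative to the median gene it was -0.17 from 0 min and -0.73 from 20 min. The higher value at 20 min and the low percentiles from 20 min rest on the same 20 min library. In that library the H3K36me3 level of *BRE1* was at percentile 95.7, against 79.9 at 0 min and 81.6 at 40 min.

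*RAD6* encodes the conjugating enzyme, which also serves the ligases Ubr1 in protein turnover and Rad18 in DNA damage tolerance. Its H3K4me3 signal was 6.58, 6.66, 6.17 and 6.003, and its H3K36me3 signal 2.11, 1.70, 1.56 and 1.35. At 60 min both changes were near that of the median gene. The H3K4me3 change was -0.13 (percentile 63.9) and that of H3K36me3 -0.64 (percentile 50.8), 0.050 and 0.0072 above the median gene. The steps between differed more: from 20 to 40 min H3K4me3 was 0.11 lower on the log2 scale, at percentile 11.6, while the median gene was 0.06 higher. Among genes of similar length, by the same limits, the percentiles were 53.5 and 45.1.

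Taken as a set, the members' median change at 60 min was -0.16 in H3K4me3, against -0.18 over all genes tested, and -1.13 in H3K36me3, against -0.65. All 4 were below their 0 min level in both marks at 60 min. That is near the background, as 88.7% of genes were lower in H3K4me3 and 95.2% in H3K36me3. At all 3 later times 1 of 4 was below 0 min in H3K4me3, against 41.0% of genes, and 3 of 4 in H3K36me3, against 79.6%. None was at least 2-fold lower in H3K4me3, where *UBP10* came closest and 0.124% of genes passed. In H3K36me3 2 of 4 were, *LGE1* and *UBP10*, against 17.6% of genes. Both started high in this mark, which the comparison with all genes does not allow for. Genes of similar start had median H3K36me3 changes of -0.91 for *LGE1* and -0.83 for *UBP10*. Their lower quartiles, -1.12 and -1.05, were past the 2-fold limit. At 20 min 3 of 4 were below 0 min in H3K4me3, against 67.4% of genes, and 1 of 4, *LGE1*, was at least 2-fold lower in H3K36me3, against 5.76%.

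These directions depend on the scale of the libraries. With libraries rescaled to hold constant the median of the weakest 5% of genes (by their mean over time), the median 60 min change moved up by 0.30 for H3K4me3 and 0.60 for H3K36me3. So scaled, H3K4me3 of *BRE1*, *RAD6* and *LGE1* was above 0 min, at 0.12, 0.16 and 0.25, as the median gene was at 0.11, and *UBP10* remained below it at -0.67, as did 22.8% of all genes. H3K36me3 of *UBP10* and *LGE1* remained at -1.26 and -0.83, and that of *RAD6* was at -0.031. Relative to the median gene, H3K36me3 was at -1.22 for *UBP10*, -0.80 for *LGE1*, -0.17 for *BRE1* and 0.0072 for *RAD6*, and H3K4me3 at -0.78 for *UBP10* and between 0.0048 and 0.14 for the others.

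The genes beside *UBP10* did not show changes of its size. *SWT21*, which ends 430 bp from *UBP10* on the left, had H3K4me3 of 3.66, 3.60, 3.31 and 3.13, a 60 min change of -0.22. Its H3K4me3 was thus also lower in each successive library, by less than that of *UBP10*. *MRPL19*, a mitochondrial ribosomal protein gene 316 bp to the right, had 5.88, 5.59, 6.82 and 6.09, a change of 0.05. In H3K36me3 they were at -0.52 and -0.35. Next to *LGE1*, *LCL1* and *LEE1* were both below the filter, with 0 min H3K4me3 of 0.402 and 0.205, so *LGE1* was the only gene of the 3 past it. *AHK1*, on the right of *BRE1*, had H3K36me3 of 1.65, 0.991, 0.862 and 0.953. It was already low at 20 min, when *BRE1* was not. *PKP2* and *GEP7*, beside *RAD6*, had 0 min H3K36me3 of 0.321 and 0.433, against 2.11 for *RAD6*.

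**Figure D3:**
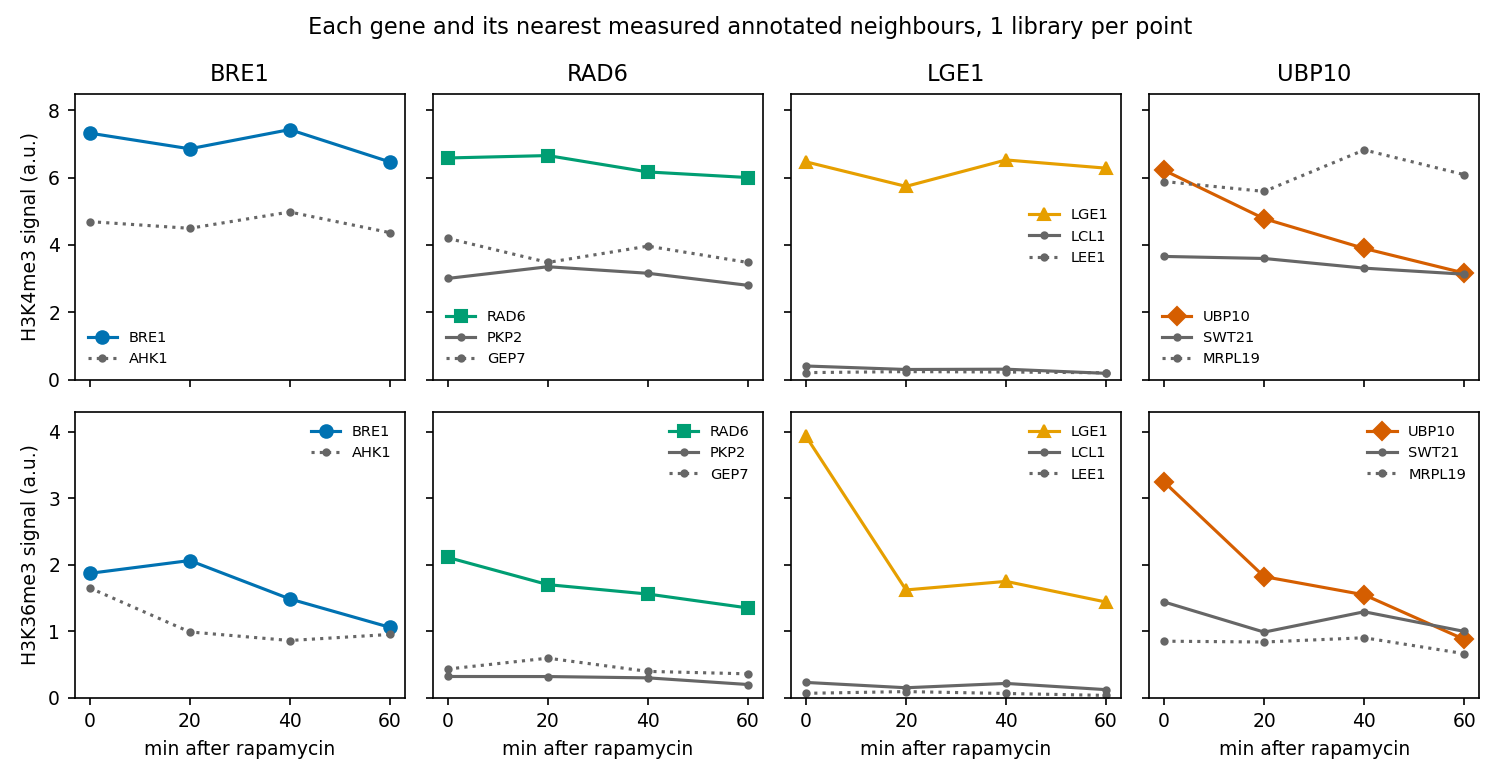
Signal of H3K4me3 (top) and H3K36me3 (bottom), in arbitrary linear units, against time after rapamycin in min, for each of the 4 genes (colour) and its nearest measured neighbours (grey, solid on the left and dotted on the right), 1 library per point. H3K4me3 of *UBP10* goes from 6.22 to 3.16 between neighbours at -0.22 and 0.05 on the log2 scale.

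Profiles were compared over the 8 values (log2 levels at 4 times for each mark). *BRE1* and *RAD6* were the most alike of the 6 pairs of members, with a Euclidean distance of 0.58. Of all genes, 0.623% were nearer to *BRE1* than *RAD6* was, but 6.81% were nearer to *RAD6* than *BRE1* was. The other 5 pairs lay 0.95 to 1.72 apart, with *BRE1* and *UBP10* farthest. Of all 4657 genes, the nearest to *BRE1* was *UBP6* (0.37), then *RPC82* (0.41) and *RPA135* (0.42). *RAD6* was nearest to *NST1* (0.23), *PIM1* (0.26) and *MEX67* (0.27), and *LGE1* to *LCB1* (0.28), *FET3* (0.29) and *CTI6* (0.38). *UBP10* had no gene as near: *RPS18B* and *ERG6* were at 0.63 and *FRE1* at 0.69, where the median gene was 2.27 away. Their H3K4me3 at 60 min was 3.41, 3.87 and 3.61, from 5.06, 5.51 and 5.06 at 0 min.

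Other genes of the pathway did not share the *UBP10* values. In the list of the SAGA deubiquitinase module, the Paf1 complex and Bur kinase, the H2B and FACT genes and the methylases that need H2B ubiquitination, 23 of 24 genes had values past the filter in each mark. In H3K4me3 at 60 min 17 of 23 were below 0 min, against 88.7% of all genes, and none was at least 2-fold lower, against 0.124%, with a median of -0.18. In H3K36me3 23 of 23 were below 0 min, against 95.2%, and none was at least 2-fold lower, against 17.6%, with a median of -0.48 against -0.65 over all genes. Rescaled to the weakest 5% of genes, 4 of 23 were below 0 min in H3K4me3, against 22.8% of all genes, and 7 of 23 in H3K36me3, against 54.8%. None of them was as low as *UBP10* in either mark. However, all of them started lower than *UBP10* in H3K36me3, with *LEO1* highest at 2.56, against 3.24 for *UBP10*. Genes that started as high as *UBP10* were lower than most at 60 min, so the H3K36me3 contrast does not allow for the start.

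*UBP8*, which encodes the other H2B deubiquitinase, a subunit of SAGA, had H3K4me3 of 5.92, 5.52, 5.47 and 4.71, a change of -0.33. Its H3K36me3 was 1.45, 1.05, 1.05 and 1.07, with a change of -0.43. The 3 later H3K36me3 libraries were level, unlike those of *UBP10*. In H3K4me3, however, *UBP8* was lower in each successive library, as *UBP10* was. The other members of its module were *SGF11* at 0.01 and -0.47 for H3K4me3 and H3K36me3, *SGF73* at -0.18 and -0.49 and *SUS1* at -0.38 and -0.92.

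The Paf1 complex binds elongating RNAPII and is needed for Rad6 and Bre1 to act on H2B. H3K4me3 changes of its genes ran from *CDC73* at -0.18 to *PAF1* at 0.06, and those of H3K36me3 from *PAF1* at -0.88 to *RTF1* at -0.29. *BUR2*, which encodes the cyclin of the Bur1 kinase, was lower than these, at -0.56 in H3K4me3 (percentile 1.65) and -0.99 in H3K36me3. The H2B genes *HTB1* and *HTB2*, the substrate, were above 0 min in H3K4me3, at 0.49 and 0.30 (percentiles 99.4 and 99.0), and below it in H3K36me3 as deposited, at -0.16 and -0.48, but above it at 0.44 and 0.13 when rescaled to the weakest 5% of genes. Both values are uncertain, because the copies are nearly identical and how reads were assigned to each is not stated. The FACT genes *SPT16* and *POB3*, for the histone chaperone that acts with ubiquitinated H2B, were at -0.21 and -0.23 in H3K4me3, and at -0.25 and -0.61 in H3K36me3.

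Of the methylase genes, 8 of 9 were measured. *SET1*, the H3K4 methylase, was at -0.33 in H3K4me3 and *SPP1* of the same complex at -0.01, the ends of that list. In H3K36me3 *DOT1* was lowest at -0.91 and *SHG1* highest at -0.06. *SWD2* was not analysed here.

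**Figure D4:**
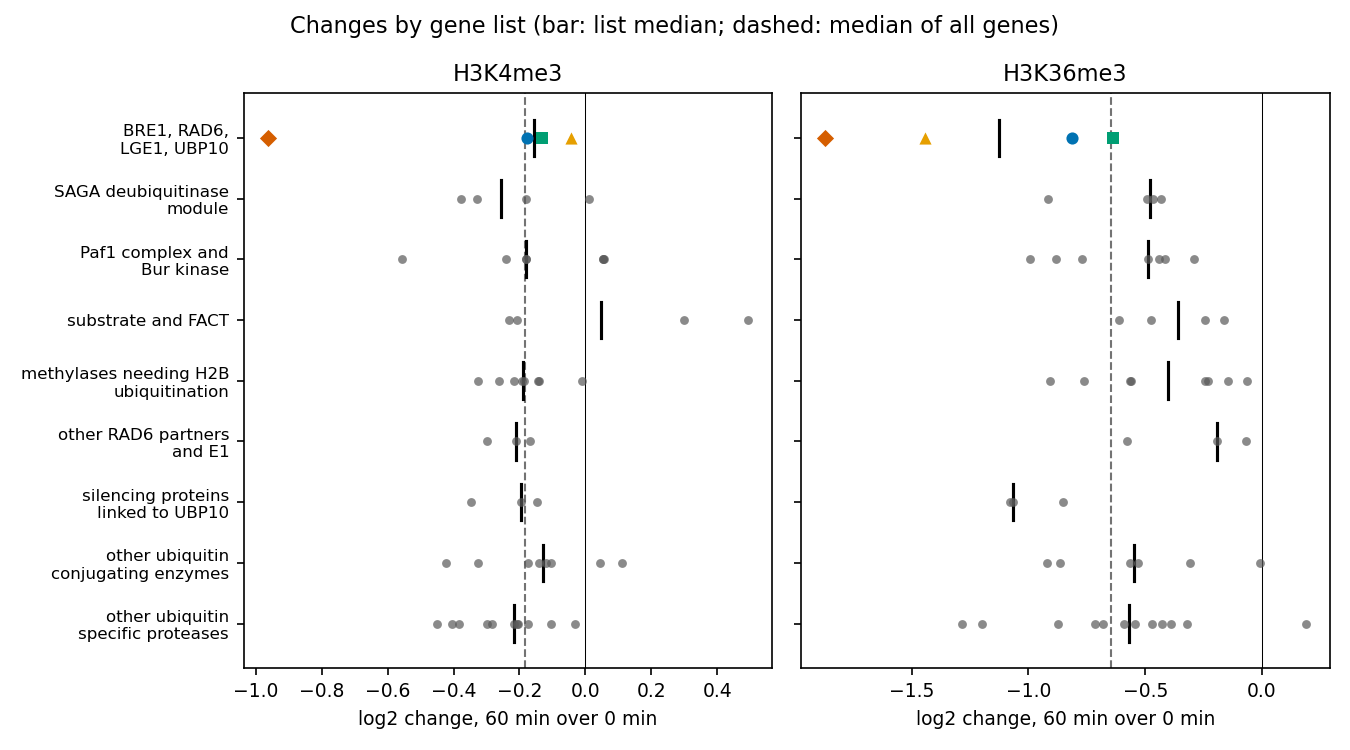
Log2 change at 60 min over 0 min of H3K4me3 (left) and H3K36me3 (right) for the genes of each list past the filter (points), with the list's median (black bar) and the median of all genes tested (dashed). *UBP10* lies below all other listed genes in both marks, at -0.96 and -1.87.

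Among enzymes of the same families, *UBP10* was again the lowest. Ranges here are of genes past the filter only. The other ubiquitin-specific protease genes ran from *UBP1* at -0.45 to *UBP3* at -0.03 in H3K4me3, with 11 of 11 below 0 min (88.7% of all genes were). In H3K36me3 they ran from *UBP3* at -1.29 to *UBP11* at 0.19, with 2 of 12 at least 2-fold lower, near the 17.6% of all genes. *UBP9*, below the H3K4me3 filter, was at -0.60. *UBP3* resembled *LGE1*: its H3K36me3 was 4.35, 2.05, 2.25 and 1.78, and its H3K4me3 6.81, 6.16, 7.04 and 6.66. Of 10 other ubiquitin-conjugating enzyme genes, 8 passed the H3K4me3 filter and ran from *UBC5* at -0.42 to *UBC1* at 0.11. In H3K36me3 6 passed and ran from *UBC6* at -0.92 to *UBC1* at -0.01, so *RAD6* lay inside both ranges. *UBC11*, below the H3K36me3 filter, was at 0.81. The other ligase partners of Rad6, *UBR1* and *RAD18*, were at -0.30 and -0.17 in H3K4me3 and at -0.58 and -0.07 in H3K36me3, and the activating enzyme gene *UBA1* at -0.21 and -0.19.

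The silencing genes *SIR2*, *SIR3* and *SIR4*, whose products act at telomeres where Ubp10 is also known to act, had H3K36me3 changes of -1.07, -1.08 and -0.85, or -0.47, -0.48 and -0.25 when rescaled to the weakest 5% of genes. As deposited, 2 of the 3 were at least 2-fold lower, by a narrow margin, against 17.6% of all genes. Their percentiles were 13.6, 13.0 and 28.5, far less extreme than the 0.319 of *UBP10*. The list's median of -1.07, over only 3 genes, was the lowest of the 8 lists beside the members. *SIR2* had H3K36me3 of 0.712, 0.487, 0.398 and 0.334, lower in each successive library, and *SIR3* had 0.781, 0.621, 0.761 and 0.364, with the difference mostly at 60 min. Their H3K4me3 changes were -0.35, -0.20 and -0.15, against -0.18 for the median gene.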

How the data were processed

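The deposited table holds the authors' signal per gene in 8 columns. The submitters' processing notes name Bowtie2, SAMtools, bedtools and the builds sacCer3 and ASM294v2, without versions or roles. Which stretch of a gene was measured is not given in the sources used here. A spike-in of 25% *Schizosaccharomyces pombe* cells is described in the labels' protocols. Column headings name a mark and time but no library type, and each was taken as the immunoprecipitated group.

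Of 5222 lines, 3 were blank and 1 lacked values. Of 5218 genes, 5115 matched the R64 gene table, which gave names, positions and neighbours. Genes entered ranks when their time-averaged signal was at least 25% of its median over genes (1.17 for H3K4me3, 0.219 for H3K36me3), which left 4826 and 4861. "2-fold lower" means a log2 change of -1 or less.

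The members, gene lists and rules were chosen with earlier results of these data known. The genes named are the members, their neighbours, the 3 nearest profiles, and the lowest and highest of each list with those whose role is told; others are said to be chosen later. Alternatives covered the pseudocount, scaling, start and end libraries and reference genes. The steps were tested on simulated levels. Python 3.11.15, pandas 2.3.3 and numpy 2.4.6 were used.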

Additional observations from a re-analysis of the deposited data

How the results depend on the processing

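No paired analysis was possible because each mark and time has 1 library. With no replicate error, a 60 min change was taken as moved when it differed by over 0.25 (log2), and a percentile by over 5 points. Changes without a pseudocount or with one of 10% moved in no member. Scaled to equal column totals, H3K36me3 was at -0.14 for *BRE1*, 0.030 for *RAD6*, -0.77 for *LGE1* and -1.20 for *UBP10*, and H3K4me3 at 0.040 for *RAD6* and 0.13 for *LGE1*. Scaled to the lowest 5% of genes, H3K4me3 was at 0.12 (*BRE1*), 0.16 (*RAD6*), 0.25 (*LGE1*) and -0.67 (*UBP10*), and H3K36me3 at -0.21, -0.031, -0.83 and -1.26. Relative to the median gene, H3K4me3 was at 0.0048 (*BRE1*), 0.050 (*RAD6*) and 0.14 (*LGE1*), and H3K36me3 at -0.17, 0.0072, -0.80 and, for *UBP10*, -1.22. From 20 to 60 min, H3K4me3 was at 0.13 (*LGE1*) and -0.59 (*UBP10*), and H3K36me3 at -0.33 (*RAD6*), -0.17 (*LGE1*) and -1.04 (*UBP10*). From 0 to 40 min, H3K4me3 was at 0.020 (*BRE1*), 0.012 (*LGE1*) and -0.67 (*UBP10*), and H3K36me3 at -0.33 (*BRE1*), -1.16 (*LGE1*) and -1.06 (*UBP10*). By slope over 60 min, H3K4me3 of *LGE1* was at 0.017. The other 31 of 64 values kept their direction and moved by no more than 0.25, a limit wider than the H3K4me3 changes of *BRE1*, *RAD6* and *LGE1* themselves: at equal totals that of *BRE1* was -0.0054. The cause was not tested. Percentiles moved in 4 of 40 cases: those of *RAD6* among genes of similar length, and, in an alternative chosen after seeing the data, those of *RAD6* (60.7) and *LGE1* (11.02) in H3K36me3 among genes of similar 0 min level. The depth behind each value is unknown.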

Other observations

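Besides *FPR1* and *SWM1*, the genes below *UBP10* in H3K4me3 at 60 min were *RCO1* (-1.495), *ECM33* (-1.21), *TOP1* (-1.10) and *PDR8* (-1.10), named after their values were seen. *ECM33*, which encodes a cell wall protein, had H3K4me3 of 4.78, 4.56, 2.87 and 2.04, and *TOP1*, the gene of DNA topoisomerase I, had 4.57, 3.71, 2.81 and 2.10. Each was lower in each successive library, as was *UBP10*. Their H3K36me3 changes were -1.65 and -1.63. All 6 genes below *UBP10* started lower in H3K4me3, at percentiles 11.7 to 46.2 of all genes, where *UBP10* started at 84.1.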
